A study of Mus musculus with 18 samples.

Results

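The livers of mice given asparaginase were examined for the enzymes that break down amino acids. The set comprised 39 genes, picked by name from the 37303 genes of the expression table and sorted by the amino acid they degrade. Of these, 4 genes act on tyrosine and phenylalanine, 7 on tryptophan, 2 on histidine, 6 on serine, glycine and glyoxylate, 4 on proline and ornithine, 12 on the branched-chain amino acids, 2 on lysine and 2 on cysteine. All 39 had an accepted value in each of the 6 groups, and all 39 passed the filter on low values in every comparison.

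The animals were C57BL/6J mice aged 8 to 16 weeks by one label and at most 12 weeks by another, and 3 strains were used: wild type (WT), mice with a homozygous whole-body deletion of Gcn2 (Gcn2-/-) and mice with a homozygous whole-body deletion of Atf4 (Atf4-/-). Each strain received 8 daily intraperitoneal injections of L-asparaginase (ASNase, 3 IU per gram of body weight) or an equal volume of phosphate buffered saline (PBS), and the livers were taken 7.5 h after the last injection. Of the 18 mice, 3 fell into each of the 6 groups, with 1 or 2 males among the 3, and polyA RNA of whole liver was sequenced. Because the deletions were present in every tissue, a value in liver can include effects that arose elsewhere. The males numbered 1 of 3 in the WT PBS group and 2 of 3 in the WT ASNase group, so sex and ASNase cannot be fully told apart in WT mice. Both Gcn2-/- groups held 1 male of 3 and both Atf4-/- groups 2 of 3. Sex and strain thus cannot be fully told apart between Atf4-/- and WT mice under PBS or between the knockouts. The imbalance in WT mice also enters each comparison of a knockout response with that of WT mice.

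L-asparaginase hydrolyses circulating asparagine and, more slowly, glutamine. When amino acids run short, uncharged tRNA activates the kinase GCN2, which phosphorylates the translation factor eIF2, and the transcription factor ATF4 is then made in larger amounts. Hepatocytes are the main site at which surplus amino acids are degraded. The enzymes of these pathways pass the carbon to the citric acid cycle, to glucose and ketone bodies, and in the case of tryptophan also to NAD.

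The expression table holds 1 value per gene and group, in FPKM (fragments per kilobase of transcript, scaled to the mapped fragments of a library), with the lower and upper bound that Cuffdiff, the program the submitters used, gave it. It holds no counts, depths or values of single mice, so the bounds are the only error used here, and no SD, n or p-value stands beside a value. The study lists the reads of each library, which were not used here. Bounds are given in brackets after a level, and within each strain the PBS level comes first and the ASNase level second. A gene was called changed when the difference on the log2(FPKM + 0.1) scale was over 1.5, at least 1 of the values was over 3 FPKM and the bounds of the groups did not overlap. Folds are taken on that scale too. The median half-width of the members' bounds was 51.1% to 56.2% of the value, depending on the group, and bounds of that width part only when values differ 3.09- to 3.57-fold. For 10 members a lower bound lay at 0 FPKM in at least 1 group, and such a group could be called only as the lower of a pair. Where the bounds of a difference passed 6 on the log2 scale, the difference alone is given.

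In PBS-treated WT liver the members ranged from 10.5 FPKM (Acmsd) to 2357 FPKM (Hpd). Of the 39, 22 were over 100 FPKM and 4 over 1000 FPKM: Tat, Hpd, Tdo2 and Cdo1, each of which takes part in the first or second step of its pathway. The summed level of the members was 10831 FPKM with PBS and 9954 with ASNase in WT mice, 10838 and 8884 in Gcn2-/- mice, then 9468 and 6851 in Atf4-/- mice. The lowest sum was that of Atf4-/- mice given ASNase, and in bulk liver fewer hepatocytes and less RNA per cell cannot be told apart.

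In WT liver no member passed the limits after ASNase. None was called lower, against 0.121% of the 9084 genes measured well enough, and none was called higher, against 0.76% of those genes. The largest difference in either direction was -0.50 (-2.80 to 1.46) on the log2 scale, with bounds of the difference in brackets, for Hal, the first enzyme of histidine breakdown. The members' median change was -0.12, with 31 of 39 values lower after ASNase, beside -0.01 for all genes, and with the groups scaled to the same summed FPKM these medians became 0.03, with 17 lower, and 0.15. Such a scaling moves every gene of a comparison by nearly the same amount, so the gap between these medians could hardly change. Genes over 50 FPKM in WT PBS, most of which are lower too, had a median of -0.14, and the 30 members above that level had a median of -0.11.

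In the knockouts more members moved past 1 on the log2 scale, 12 (30.8%) in Gcn2-/- and 24 (61.5%) in Atf4-/- mice beside 0 in WT mice, and the shares of all genes were 14.1%, 23.7% and 2.93%. In Gcn2-/- liver 2 of 39 members (5.13%), Csad and Agxt, fell with ASNase, against 2.13% of all genes called lower, and no member rose, against 1.56% of all genes. With only 2 genes, this share is not read as above that of all genes. In Atf4-/- liver 9 of 39 (23.1%) fell: Hgd, Ido2, Kynu, Haao, Uroc1, Amt, Agxt, Prodh2 and Aldh4a1. The share of all genes called lower in that strain was 4.63%, and no member rose, against 2.74% of all genes called higher. Scaling the groups to the same summed FPKM moved the share of lower among all calls from 57.6% to 41.0% in Gcn2-/- and from 62.8% to 79.0% in Atf4-/- mice, and left no member called higher. The median change of the members was -0.77 in Gcn2-/- mice (32 values lower) and -1.07 in Atf4-/- mice (34 lower), whereas the medians of all genes were 0.02 and 0.08. Scaled to the same summed FPKM, the members' medians were -0.54 and -1.35 and those of all genes 0.25 and -0.22. Abundant genes as a class were also lower: genes over 50 FPKM in WT PBS had medians of -0.33 and -0.38, beside -0.83 and -1.16 for the 30 members above that level. They were also called lower more often than all genes. In Gcn2-/- mice 79 of 1501 were called lower and 6 higher, beside 2 and 0 of the 30 members. In Atf4-/- mice 204 of 1508 were called lower and 37 higher, beside 7 and 0 of the 30 members.

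**Figure D1:**
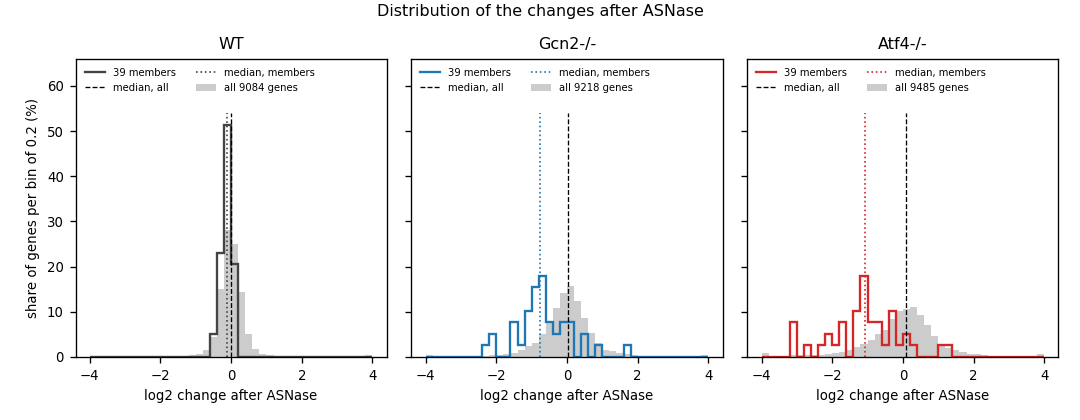
Share of genes in percent (vertical axis) in each bin of the log2 change after ASNase (horizontal axis, bins of 0.2, values beyond 4 placed in the end bins) in WT, Gcn2-/- and Atf4-/- liver. Grey bars stand for all genes measured well enough and the coloured outline for the 39 members, whose medians of -0.12, -0.77 and -1.07 lie to the left of the medians of all genes, -0.01, 0.02 and 0.08; with the groups scaled to the same summed FPKM the WT median of the members is 0.03 and that of all genes 0.15.

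A rule without the limit on size, which asks only that the bounds of the difference exclude 0 and was added after the values had been seen, took in smaller shifts. Under it 7 members (17.9%) were lower in Gcn2-/- mice after ASNase, against 4.93% of all genes: Hgd, Gcsh, Agxt, Prodh2, Aldh4a1, Hibadh and Csad. A single member, Acmsd (2.56%), was higher there, against 3.73% of all genes. In Atf4-/- mice it found 13 members lower (33.3%), the 9 already named with Gcsh, Mccc2, Hibadh and Aldh6a1, against 8.68% of all genes, and 0 higher, against 5.87%. In WT mice it found 0 lower and 0 higher, against 0.572% and 1.07% of all genes. Genes over 50 FPKM in WT PBS were lower under this rule more often than all genes in both knockouts. In Gcn2-/- mice 185 of 1501 were lower and 20 higher, beside 7 and 0 of the 30 members above that level. In Atf4-/- mice 319 of 1508 were lower and 99 higher, beside 10 and 0 of the 30 members.

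**Figure D2:**
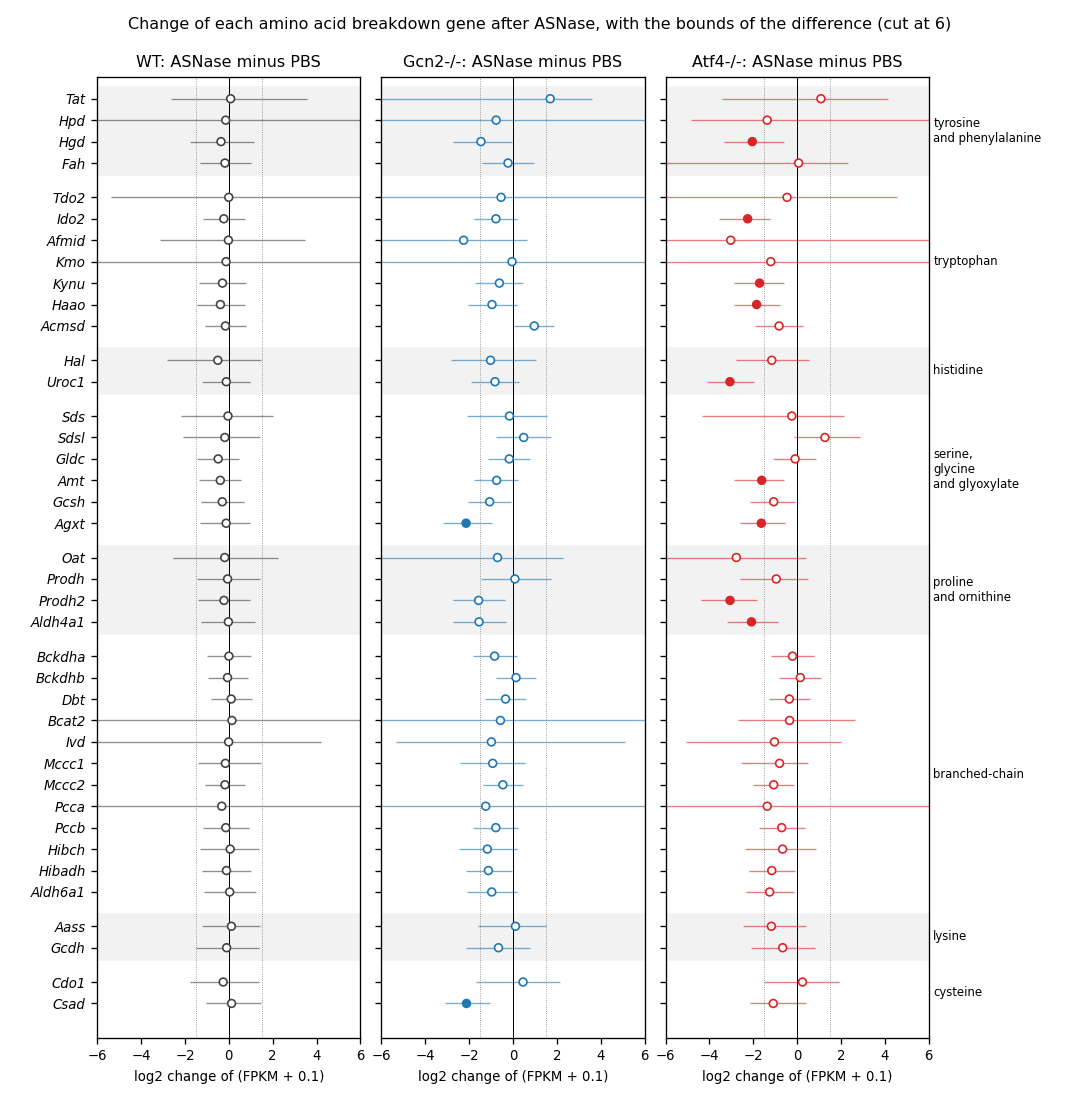
Difference of log2(FPKM + 0.1) between ASNase and PBS (horizontal axis) for each of the 39 members, ordered by the amino acid degraded, in WT, Gcn2-/- and Atf4-/- liver. Points are the differences, filled where the member was called, lines their bounds (cut at 6), and dotted lines mark 1.5 in either direction; no point is filled in WT, 2 are filled in Gcn2-/- and 9 in Atf4-/-.

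Of the 4 enzymes of tyrosine breakdown Hgd was called, in Atf4-/- mice, and the other three were not. Tyrosine aminotransferase (Tat) removes the amino group, 4-hydroxyphenylpyruvate dioxygenase (Hpd) makes homogentisate, homogentisate dioxygenase (Hgd) opens the ring, and fumarylacetoacetate hydrolase (Fah) ends the pathway. Hgd, on chromosome 16 (37580153 to 37632020, GRCm38), was at 521 (206–836) and 407 (174–639) FPKM in WT, 517 (212–822) and 188 (88.8–287) in Gcn2-/- and 455 (187–724) and 110.0 (50.9–169) in Atf4-/- mice. It fell 4.14-fold in Atf4-/- mice (log2 -2.05, bounds -3.34 to -0.63), and its Gcn2-/- difference of -1.46 (-2.73 to -0.04) stayed short of the limit. In Atf4-/- mice given ASNase its upper bound lay below the lower bounds of the WT groups and of all PBS groups, while Gcn2-/- mice given ASNase overlapped with WT mice. Tat had levels of 1103 (107–2099) and 1169 (197–2141) FPKM in WT, 613 (202–1024) and 1987 (0–4100.1) in Gcn2-/- and 952 (127–1776) and 2013 (94.5–3931) in Atf4-/- mice. The knockout ASNase groups held the highest values, with differences of 1.70 and 1.08 (-3.42 to 4.14). Neither was called: the wide bounds overlapped in both knockouts, and the Atf4-/- difference was also below the size limit. Hpd, the most abundant member, gave -0.77 in Gcn2-/- and -1.37 in Atf4-/- liver. Fah lay between 375 and 456 FPKM in all 6 groups, which do not differ beyond their bounds. The ratio of Tat to Hgd came to 2.12 and 2.87 in WT, 1.18 and 10.6 in Gcn2-/- and 2.09 and 18.3 in Atf4-/- mice, PBS before ASNase. It had no test and carries the wide bounds of Tat.

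All 7 genes of the tryptophan (kynurenine) pathway were lower in Atf4-/- mice after ASNase, and 3 of them were called. Their median reached -1.72 there, beside -0.62 in Gcn2-/- and -0.15 in WT mice. The route begins with Tdo2 or Ido2, which open the indole ring, and continues with the formamidase Afmid, the hydroxylase Kmo and the hydrolase Kynu. Haao then forms the precursor of quinolinate and so of NAD, and Acmsd diverts that intermediate to complete oxidation. Ido2 (chromosome 8, 24531892 to 24576333) was at 27.9 (16.0–39.8) and 23.9 (13.7–34.0) FPKM in WT, 25.2 (14.7–35.7) and 14.7 (7.86–21.5) in Gcn2-/- and 29.6 (16.8–42.4) and 6.09 (2.62–9.57) in Atf4-/- mice. It fell 4.86-fold in Atf4-/- mice (log2 -2.26, bounds -3.56 to -1.23), and the Atf4-/- ASNase value lay below the bounds of all the other groups. Its own upper bound, 9.57 FPKM, passed the lower bound of Gcn2-/- ASNase, 7.86 FPKM, so these 2 groups overlapped. Kynu (chromosome 2, 43555329 to 43682715) was at 82.3 (43.2–121) and 67.3 (35.9–98.8) FPKM in WT, 75.2 (40.5–109.8) and 48.9 (24.7–73.0) in Gcn2-/- and 81.7 (43.1–120.3) and 24.8 (12.3–37.2) in Atf4-/- mice. Its Atf4-/- fall was 3.30-fold (log2 -1.72, bounds -2.86 to -0.62). Haao (chromosome 17, 83831156 to 83847963) was at 394 (201–586) and 302 (162–442) FPKM in WT, 411 (210.3–613) and 212 (111–312) in Gcn2-/- and 311 (166–457) and 86.2 (47.2–125) in Atf4-/- mice. It fell 3.61-fold in Atf4-/- mice (log2 -1.85, bounds -2.88 to -0.79), and its Gcn2-/- difference of -0.96 (-2.05 to 0.16) was not called.

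Tdo2, the chief hepatic enzyme for the first step, was not called: its levels of 1078 (0–2232) and 1078 (27.9–2127) FPKM in WT, 1254 (0–2613) and 860.5 (13.4–1708) in Gcn2-/- and 889.6 (29.2–1749.9) and 645 (0–1328) in Atf4-/- mice overlapped throughout. Afmid had the steepest tryptophan value of all, with levels of 65.8 (6.28–125) and 65.0 (8.17–122) FPKM in WT, 69.6 (12.1–127) and 14.5 (0–39.5) in Gcn2-/- and 59.9 (0–122) and 7.24 (0–16.6) in Atf4-/- mice. The differences of -2.25 and -3.03 were not called because the bounds overlapped, and Afmid also overlaps Tk1 on the opposite strand and Gm20708 on the same strand, whose reads an unstranded library cannot fully separate from its own. Kmo gave 136 and 58.9 FPKM in the Atf4-/- groups, with lower bounds of 0. Acmsd (chromosome 1, 127729413 to 127767978), the least abundant member in WT liver, was at 10.5 (5.98–15.1) and 9.47 (5.40–13.5) FPKM in WT, 13.7 (8.05–19.4) and 27.0 (15.7–38.2) in Gcn2-/- and 9.61 (4.91–14.3) and 5.37 (2.76–7.99) in Atf4-/- mice. It was the only one of the 7 that was higher after ASNase in Gcn2-/- mice, by 0.97 (0.05 to 1.88), while its Atf4-/- difference was -0.83 (-1.92 to 0.28). These opposite directions made a difference between the knockouts of -1.80, bounds -3.22 to -0.36, which passed the test of the difference. Acmsd overlaps 2900009J06Rik on the opposite strand, so the limit given for Afmid holds for it too.

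Both histidine enzymes were lower after ASNase in both knockouts, and Uroc1 was called in Atf4-/- mice. Histidase (Hal) removes ammonia from histidine to give urocanate, and urocanase (Uroc1) acts next. Uroc1 (chromosome 6, 90333284 to 90364551) was at 111 (58.1–163) and 102 (52.9–152) FPKM in WT, 130.0 (67.2–193) and 73.5 (38.1–109) in Gcn2-/- and 101 (52.7–149) and 11.9 (6.49–17.4) in Atf4-/- mice. It fell 8.44-fold in Atf4-/- mice (log2 -3.07, bounds -4.10 to -1.99), about as far as Prodh2 and further than the other members called. Of the 6 groups, 5 had overlapping bounds, while Atf4-/- ASNase lay below them all. Hal was at 193 (56.6–329.6) and 137 (30.3–243) FPKM in WT, 257 (66.1–447) and 126 (40.8–212) in Gcn2-/- and 137 (46.8–227) and 61.1 (22.5–99.8) in Atf4-/- mice. It gave differences of -1.02 (-2.84 to 1.07) and -1.16 (-2.77 to 0.54) in the knockouts, neither called, and had overlapping bounds in all comparisons.

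Among the 6 genes for serine, glycine and glyoxylate, Agxt and Amt were called and the serine dehydratases were not. Alanine-glyoxylate aminotransferase (Agxt) converts glyoxylate to glycine in peroxisomes, which keeps it from becoming oxalate. Agxt (chromosome 1, 93135240 to 93145421) was at 217 (115–319.6) and 200.0 (97.1–303) FPKM in WT, 416 (199–633) and 94.3 (51.0–138) in Gcn2-/- and 181 (93.9–269) and 58.2 (33.7–82.8) in Atf4-/- mice. It was the only member called in both knockouts, with a 4.41-fold fall in Gcn2-/- mice (log2 -2.14, bounds -3.21 to -0.94) and a 3.11-fold fall in Atf4-/- mice (log2 -1.64, bounds -2.61 to -0.56). The Gcn2-/- fall started from the highest level of the 6, since the PBS value was 1.91-fold that of WT PBS (log2 0.94, bounds -0.26 to 2.03), a difference that was not called, and both share the Gcn2-/- PBS group. Amt, Gcsh and Gldc encode the T, H and P proteins of the glycine cleavage system. Amt (chromosome 9, 108296853 to 108302302) was at 24.5 (14.0–35.0) and 18.7 (10.4–27.0) FPKM in WT, 21.0 (11.9–30.0) and 12.4 (6.62–18.3) in Gcn2-/- and 24.0 (13.7–34.4) and 7.76 (3.40–12.1) in Atf4-/- mice. It fell 3.10-fold in Atf4-/- mice (log2 -1.62, bounds -2.89 to -0.59). Gcsh gave -1.06 (-2.07 to -0.10) and -1.07 (-2.13 to -0.09) in Gcn2-/- and Atf4-/- mice, short of the limit in both, and Gldc gave -0.17 (-1.12 to 0.78) and -0.10 (-1.12 to 0.87). Gldc was at 40.3 (22.8–57.7) and 28.8 (16.4–41.1) FPKM in WT, 33.4 (19.2–47.7) and 29.7 (17.0–42.5) in Gcn2-/- and 27.0 (15.5–38.4) and 25.2 (13.6–36.9) in Atf4-/- mice. Its largest change after ASNase was that in WT mice, -0.48 (-1.44 to 0.48), also not called.

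Serine dehydratase (Sds), which makes pyruvate from serine, lay between 176 and 280.3 FPKM in the 6 groups. Its relative Sdsl was at 10.7 (3.95–17.5) and 9.46 (2.74–16.2) FPKM in WT, 24.7 (11.5–38.0) and 34.7 (15.9–53.5) in Gcn2-/- and 12.1 (4.31–19.9) and 29.2 (12.6–45.8) in Atf4-/- mice. These levels were highest in both Gcn2-/- groups and in Atf4-/- mice given ASNase. The Atf4-/- difference was 1.26 (-0.13 to 2.87) and that between Gcn2-/- and WT mice under PBS was 1.20 (-0.11 to 2.75). Neither was called, since both were below the size limit and the bounds overlapped.

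The proline and ornithine genes had the lowest median of the amino acid groups in Atf4-/- mice, -2.43, beside -1.13 in Gcn2-/- and -0.12 in WT mice. Prodh oxidises proline, Prodh2 oxidises hydroxyproline, ornithine aminotransferase (Oat) feeds ornithine into the same intermediate, and Aldh4a1 carries out the final step to glutamate or its hydroxylated form. Prodh2 (chromosome 7, 30493622 to 30513402) was at 135 (65.9–204) and 116 (57.9–174) FPKM in WT, 161 (78.8–243) and 54.1 (27.3–81.0) in Gcn2-/- and 118 (57.5–179) and 14.0 (6.18–21.9) in Atf4-/- mice. It fell 8.42-fold in Atf4-/- mice (log2 -3.06, bounds -4.38 to -1.85). In Gcn2-/- mice its difference of -1.57 (-2.72 to -0.39) was over the size limit, but the upper bound after ASNase, 81.0 FPKM, passed the lower bound with PBS, 78.8 FPKM, by a small margin. Aldh4a1 (chromosome 4, 139622866 to 139649690) was at 152 (73.7–231) and 150.3 (71.1–229) FPKM in WT, 169 (79.4–259) and 57.9 (28.8–87.0) in Gcn2-/- and 129 (61.3–197) and 30.3 (15.8–44.8) in Atf4-/- mice. It fell 4.25-fold in Atf4-/- mice (log2 -2.09, bounds -3.20 to -0.87) and missed the call in Gcn2-/- mice (log2 -1.55, bounds -2.72 to -0.31) in the same way as Prodh2. A gene model on the same strand, Gm21969, overlaps it.

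Oat, with levels of 650.5 (136–1165) and 572 (122–1022) FPKM in WT, 455 (64.4–845) and 279 (0.567–556) in Gcn2-/- and 519 (64.6–973) and 75.7 (0–161) in Atf4-/- mice, had a value 6.86-fold lower after ASNase in Atf4-/- mice that was not called, since the bounds of both groups overlapped. Prodh was at 78.3 (31.0–126) and 75.5 (32.7–118) FPKM in WT, 64.0 (22.6–105) and 68.0 (26.2–109.8) in Gcn2-/- and 90.8 (38.2–143) and 46.7 (16.2–77.2) in Atf4-/- mice. Its knockout differences were 0.09 (-1.46 to 1.74) and -0.96 (-2.62 to 0.49). The ratio of Prodh to Prodh2 was 0.581 and 0.651 in WT mice, 0.398 and 1.26 in Gcn2-/- mice and 0.769 and 3.33 in Atf4-/- mice, PBS before ASNase, so the Prodh value exceeded that of Prodh2 in both knockout ASNase groups and in no other group, with no test of the ratio.

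**Figure D3:**
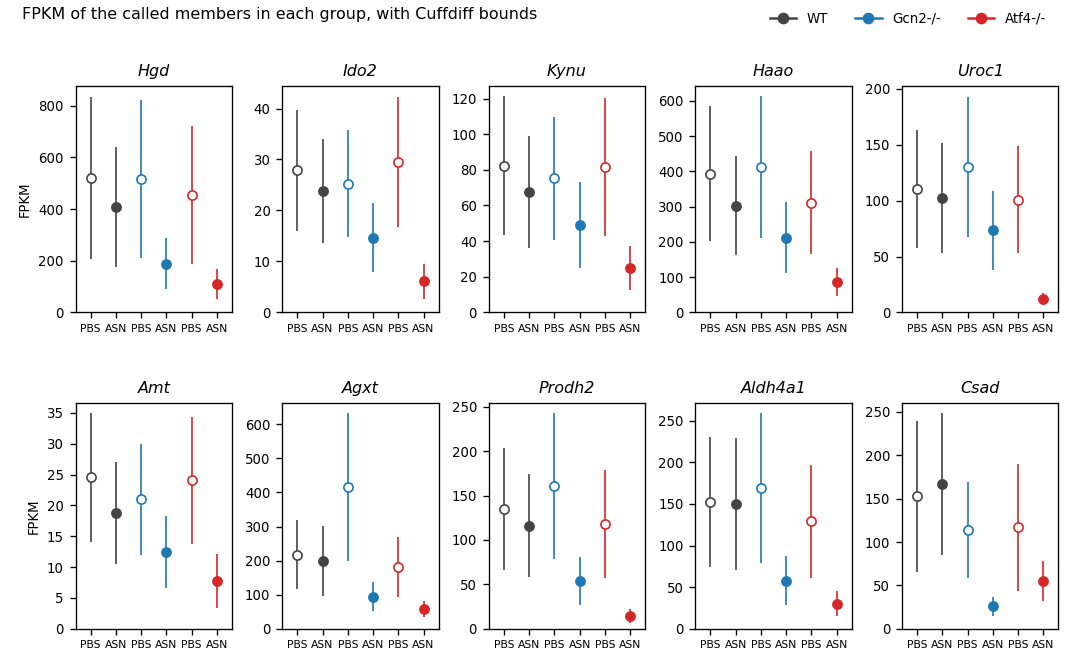
FPKM (vertical axes, from 0, each gene on its own scale) of the 10 members called after ASNase in at least 1 knockout, in the PBS (open points) and ASNase (filled points, ASN) groups of each strain; bars are the Cuffdiff bounds. The 4 groups of WT mice and of PBS-treated knockouts overlap for each gene, and the Atf4-/- ASNase value is the lowest of the 6 for all but Csad, where it is that of Gcn2-/- ASNase.

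Branched-chain amino acid genes formed the largest group, and none of the 12 was called in any strain. Bcat2 transaminates leucine, isoleucine and valine outside hepatocytes above all, Bckdha, Bckdhb and Dbt are subunits of the branched-chain keto acid dehydrogenase, and the other genes act further down. Their median change came to -0.03 for WT, -0.88 for Gcn2-/- and -0.76 for Atf4-/- mice, and 11 of 12 values were lower in each knockout. Pcca, a subunit of propionyl-CoA carboxylase, had the largest difference in both knockouts, with levels of 102 (0–244) and 82.0 (0–199.6) FPKM in WT, 90.5 (0–221) and 38.1 (0–93.6) in Gcn2-/- and 81.6 (0–203) and 31.6 (0–78.9) in Atf4-/- mice. Its differences of -1.24 and -1.37 were below the size limit, and lower bounds at 0 left them undecided. Its partner subunit Pccb gave -0.78 (-1.81 to 0.23) and -0.71 (-1.73 to 0.33).

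Within the dehydrogenase no subunit was called. Bckdha gave -0.84 (-1.85 to 0.18) in Gcn2-/- and -0.22 (-1.21 to 0.78) in Atf4-/- mice, Dbt -0.34 (-1.27 to 0.60) and -0.36 (-1.29 to 0.56), and Bckdhb 0.14 (-0.79 to 1.05) and 0.14 (-0.81 to 1.07), the 1 branched-chain gene higher in both knockouts, which turned lower in Atf4-/- mice when the groups were scaled to the same summed FPKM. On the valine branch, Hibadh was at 229 (117–341) and 213 (111–315) FPKM in WT, 230.2 (119–342) and 106 (58.6–153) in Gcn2-/- and 180.3 (94.8–266) and 80.6 (43.5–118) in Atf4-/- mice. Hibadh gave -1.12 (-2.15 to -0.03) and -1.16 (-2.21 to -0.09) and Aldh6a1 -0.97 (-2.12 to 0.20) and -1.26 (-2.32 to -0.13) in Gcn2-/- and Atf4-/- mice, all below the size limit, while Hibch gave -1.17 (-2.48 to 0.17) and -0.67 (-2.37 to 0.85). On the leucine branch, Ivd had values of -0.99 (-5.35 to 5.10) and -1.04 (-5.06 to 1.99), Mccc1 of -0.93 (-2.43 to 0.56) and -0.81 (-2.58 to 0.49), and Mccc2 of -0.46 (-1.38 to 0.45) and -1.07 (-2.01 to -0.16). The largest WT difference of the group was -0.32 for Pcca. Bcat2, at 23.5 (0–51.0) and 26.0 (0–55.1) FPKM in WT, 29.7 (0–64.5) and 19.9 (0–43.0) in Gcn2-/- and 16.9 (2.21–31.5) and 13.2 (2.83–23.6) in Atf4-/- mice, had bounds that reached 0 in 4 groups.

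For lysine, Aass catalyses the first steps of the saccharopine route and Gcdh a late one. Aass was at 87.5 (39.0–136) and 95.0 (42.4–148) FPKM in WT, 122 (53.3–192) and 132 (44.3–220.3) in Gcn2-/- and 118 (42.7–193) and 52.1 (24.6–79.5) in Atf4-/- mice. It gave 0.11 (-1.59 to 1.52) in Gcn2-/- and -1.18 (-2.47 to 0.41) in Atf4-/- mice, not called, and was lowest in the Atf4-/- ASNase group. Gcdh was at 302 (122–482) and 282 (119–445) FPKM in WT, 306 (125–487) and 193 (78.6–308) in Gcn2-/- and 266 (108–424) and 168 (69.6–267) in Atf4-/- mice. The Gcdh differences were -0.66 (-2.12 to 0.79) and -0.66 (-2.10 to 0.79), close to each other.

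Of the cysteine pair, Csad was called in Gcn2-/- mice and Cdo1 in no strain. Cysteine dioxygenase (Cdo1) makes cysteine sulfinate, which Csad decarboxylates on the way to taurine. Csad (chromosome 15, 102176999 to 102204724) was at 153 (65.9–239.8) and 167 (85.3–249) FPKM in WT, 114 (59.1–169) and 26.2 (15.3–37.1) in Gcn2-/- and 117 (44.1–189.7) and 54.7 (31.7–77.8) in Atf4-/- mice. It fell 4.36-fold in Gcn2-/- mice (log2 -2.12, bounds -3.08 to -1.05), whereas the Atf4-/- difference of -1.09 (-2.14 to 0.40) was not called. It was the only called member whose lowest value was in the Gcn2-/- ASNase group, and it overlaps Zfp740 on the opposite strand. Cdo1 was at 1102 (389–1815) and 924 (373–1476) FPKM in WT, 1105 (389.8–1819.8) and 1517 (376–2658) in Gcn2-/- and 1107 (391–1823) and 1308 (438–2178) in Atf4-/- mice. Its values after ASNase were above those with PBS in both knockouts, by 0.46 (-1.68 to 2.16) and 0.24 (-1.49 to 1.91), neither called, and the Atf4-/- value turned lower when the groups were scaled to the same summed FPKM. The ratio of the Cdo1 level to that of Csad went from 9.68 to 57.9 in Gcn2-/-, from 9.47 to 23.9 in Atf4-/- and from 7.21 to 5.53 in WT mice, with no test of the ratio.

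**Figure D4:**
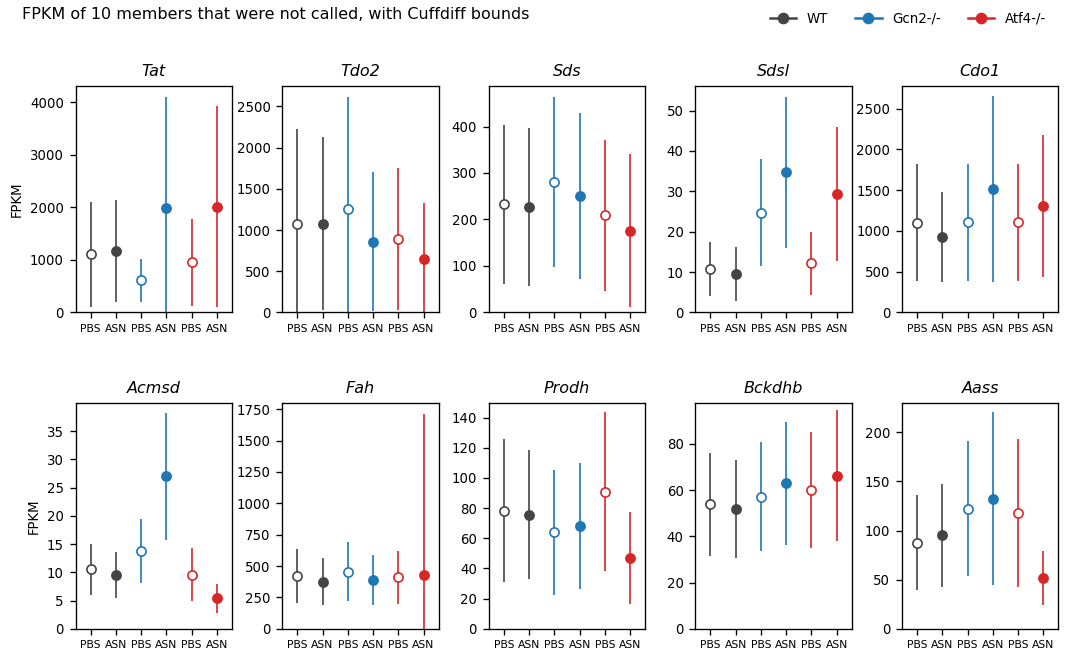
FPKM (vertical axes, from 0, each gene on its own scale) of 10 members that were not called in any group comparison, in the PBS (open points) and ASNase (filled points, ASN) groups of each strain; bars are the Cuffdiff bounds, which overlap within each strain for every gene shown. Tat and Sdsl have higher values after ASNase in both knockouts, Acmsd is higher in Gcn2-/- and lower in Atf4-/- mice, and Fah stays between 375 and 456 FPKM.

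The direction of the change was shared by both knockouts for most members. After ASNase 31 of 39 were lower in both, 4 were higher in both (Tat, Sdsl, Bckdhb and Cdo1), 3 were higher in Gcn2-/- and lower in Atf4-/- mice (Acmsd, Prodh and Aass), and Fah was the reverse. Scaled to the same summed FPKM, Gldc, Sds and Kmo turned higher in Gcn2-/- mice and Fah, Bckdhb and Cdo1 turned lower in Atf4-/- mice. Of the 31, 21 had the larger difference in Atf4-/- mice, and 30 of the 39 members had their lowest value of all groups in Atf4-/- ASNase. These counts describe the values and have no test of their own.

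Whether the response to ASNase itself differed between strains was judged from the difference of the log2 changes. Between Gcn2-/- and WT mice 2 members had a lower response, against 2.36% of all genes, namely Agxt (-2.02, bounds -3.55 to -0.34) and Csad (-2.25, bounds -3.90 to -0.66), and none had a higher one, against 2.07%. Between Atf4-/- and WT mice 4 members (10.3%) had a lower response, against 4.37% of all genes: Uroc1 (-2.95, bounds -4.46 to -1.41), Prodh2 (-2.85, bounds -4.62 to -1.16), Aldh4a1 (-2.07, bounds -3.71 to -0.34) and Ido2 (-2.04, bounds -3.64 to -0.63). None had a higher one, against 2.16%. The other members that fell in Atf4-/- mice, Hgd, Kynu, Haao, Amt and Agxt, had differences from WT between -1.69 and -1.23 whose bounds reached 0. With the groups scaled to the same summed FPKM all 5 of them passed, with Aldh6a1, which made 10 members with a lower response. Over all genes 787 of 9742 were then called in either direction, not split by direction, beside 633 of 9698 as deposited. That scaling moved the medians of all genes from 0.08 to -0.22 in Atf4-/- and from -0.01 to 0.15 in WT mice. With the scaling by median ratios Haao passed and the other 4 did not. Between Atf4-/- and Gcn2-/- mice 2 members had a lower response, against 2.35% of all genes: Uroc1 (-2.25, bounds -3.76 to -0.70) and Acmsd (-1.80, bounds -3.22 to -0.36). None had a higher one, against 1.22%.

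Under PBS no difference between the strains passed the limits. No member was called between Gcn2-/- and WT mice, against 1.04% of all genes, nor between Atf4-/- and WT mice, against 1.12%. Both comparisons share the WT PBS group. For 34 of 39 members the 3 PBS values lay within a factor of 1.5 of each other. The members' medians were 0.07 in Gcn2-/- mice, with 13 of 39 lower, and -0.15 in Atf4-/- mice, with 31 lower, beside 0.06 and 0.00 for all genes. With the groups scaled to the same summed FPKM the medians were -0.11 (26 lower) and -0.04 (24 lower), beside -0.12 and 0.12 for all genes. The widest differences in Gcn2-/- mice were those of Sdsl and Agxt given above and Tat at -0.85 (-2.70 to 2.59), and in Atf4-/- mice that of Gldc at -0.58 (-1.53 to 0.39).

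Promoter sequences are shown for the members that were called most often, over both the changes and the differences between strains, where 1 start is listed and the gene lies on the plus strand. They are the RefSeq bases (GRCm38.p6, plus strand) that lie within 250 bases before the listed start and before the start in GENCODE. Capitals mark matches to any of 5 motifs searched on both strands: TGATGNAA (the core of C/EBP-ATF response elements), TTGCNNAA (paired C/EBP half-sites), CAAAGTCCA (an HNF4 site), GTTAAT (an HNF1 half-site) and TGACGTCA (the cAMP response element). Matches to different motifs may share bases.
Uroc1, chr6:90333039-90333283: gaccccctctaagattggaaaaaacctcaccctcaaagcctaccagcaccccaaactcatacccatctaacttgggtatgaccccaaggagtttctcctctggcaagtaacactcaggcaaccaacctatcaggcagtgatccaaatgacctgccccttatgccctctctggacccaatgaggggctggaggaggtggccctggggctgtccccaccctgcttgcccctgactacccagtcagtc
Agxt, chr1:93134990-93135239: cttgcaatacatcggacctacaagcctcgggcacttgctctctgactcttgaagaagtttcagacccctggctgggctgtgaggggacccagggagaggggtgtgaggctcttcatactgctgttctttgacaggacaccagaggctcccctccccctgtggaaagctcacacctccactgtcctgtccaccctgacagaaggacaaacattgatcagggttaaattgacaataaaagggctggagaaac
Prodh2, chr7:30493408-30493621: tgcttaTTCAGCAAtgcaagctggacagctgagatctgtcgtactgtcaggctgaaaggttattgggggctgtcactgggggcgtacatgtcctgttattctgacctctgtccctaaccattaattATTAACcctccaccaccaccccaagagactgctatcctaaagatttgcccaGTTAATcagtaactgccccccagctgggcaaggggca
Aldh4a1, chr4:139622644-139622865: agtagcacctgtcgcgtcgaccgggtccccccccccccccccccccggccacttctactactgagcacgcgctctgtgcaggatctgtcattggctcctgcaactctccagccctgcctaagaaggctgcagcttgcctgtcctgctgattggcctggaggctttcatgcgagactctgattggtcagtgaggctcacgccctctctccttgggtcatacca
Prodh2 alone of the 4 held matches: TTGCNNAA from 244 to 237 bases before the listed start and GTTAAT from 124 to 119 and from 73 to 68. For Prodh2 that RefSeq start lies past the start in GENCODE, where the bases shown end. Counted from the end of the bases shown, the matches therefore lie nearer. Over the full 250 bases, TTGCNNAA was present for 5 of the 33 members with an entry (Aass, Gcdh, Hal, Hgd and Prodh2) and in 9.56% of all 32851 promoter entries, and GTTAAT for 3 of 33 (Bckdhb, Haao and Prodh2) and in 6.43%. No member held TGATGNAA, CAAAGTCCA or TGACGTCA in this window, and 3.45%, 0.384% and 1.55% of all entries did. A match describes letters and not binding.

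Other genes of amino acid breakdown, from a list of 46 of which 45 were found and 42 measured well enough, had medians of -0.13 in WT, -0.85 in Gcn2-/- and -1.03 in Atf4-/- mice. In Gcn2-/- mice 1 of the 42 fell, Amdhd1, which acts after Uroc1 in histidine breakdown, from 117 to 39.9 FPKM, a share near the 2.13% of all genes called lower. In Atf4-/- mice 7 of the 42 fell, against 4.63% of all genes, and none rose in either knockout. Of the genes over 50 FPKM in WT PBS, 204 of 1508 fell and 37 rose in Atf4-/- mice. Abat, which degrades GABA and beta-alanine, went from 80.8 to 17.5 FPKM, and Pipox, which oxidises pipecolate and sarcosine, from 163 to 37.8 FPKM. Etfdh, Hadh, Mcee and Suox had log2 changes between -1.72 and -1.58. Of 13 regulators of these pathways in a further list, 12 were measured well enough and none passed the limits on both size and bounds in any comparison. With only the bounds of the difference asked to exclude 0, as in the rule added after the values had been seen, 4 of them passed after ASNase, and they are named for that reason. In Gcn2-/- mice 1 of the 12 was lower and 1 higher, against 4.93% and 3.73% of all genes. In Atf4-/- mice 3 were lower and 0 higher, against 8.68% and 5.87%. None passed in WT mice, against 0.572% lower and 1.07% higher. With so few genes, these shares are not read as above those of all genes. Cebpb, a C/EBP factor induced in stress and fasting, was at 38.0 and 103 FPKM in Gcn2-/- mice (log2 1.44, bounds 0.23 to 2.65). Its relative Cebpa was at 192 and 79.9 FPKM in Gcn2-/- mice (log2 -1.27, bounds -2.35 to -0.10) and at 151 and 64.9 FPKM in Atf4-/- mice (log2 -1.22, bounds -2.28 to -0.14). The glucagon receptor gene Gcgr (log2 -1.40, bounds -2.51 to -0.27) and Ppara, a nuclear receptor of fatty acid oxidation (log2 -2.35, bounds -4.77 to -0.0029), passed in Atf4-/- mice.

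Marker genes of the tissue and the deleted genes were examined in the same table. Hepatocyte markers were abundant in every group, and their sum over the 8 of 10 with accepted values throughout went from 37431 with PBS to 29599 FPKM with ASNase in WT, from 37040 to 22320 in Gcn2-/- and from 31755 to 15495 in Atf4-/- mice. The other 2, Hpx and Fgb, were listed at 0 in both knockout ASNase groups without an accepted value. The sums were lower after ASNase in each strain, as the members' sums were, and the markers differed among themselves. In Atf4-/- mice Apoa2 went from 13637 to 3546 FPKM, while F2 was at 1004 and 1025 FPKM. The median log2 change of the hepatocyte markers was -0.23 in WT mice and, over the 8, -0.56 in Gcn2-/- and -0.67 in Atf4-/- mice, with none called. The 6 periportal markers found of 7 listed, of the zone in which much amino acid breakdown takes place, summed to 4455 and 4630 FPKM in WT, 5106 and 2843 in Gcn2-/- and 3669 and 1881 in Atf4-/- mice. Ass1 and Pck1 made up most of each sum, and Gls2 is also in the list of other breakdown genes. In Atf4-/- mice 5 of the 6 were lower and 1 higher. Cyp2f2 went from 506 to 29.2 FPKM there and was called, while Hsd17b13 went from 268 to 373. The 8 pericentral markers, of the opposite zone, summed to 4743 and 4803 FPKM in WT, 3790 and 2454 in Gcn2-/- and 5498 and 1345 in Atf4-/- mice. Cyp2e1 made up most of each sum. It went from 3369 to 2012 FPKM in Gcn2-/- mice, while Glul went from 233 to 370. Of the 6 measured well enough in that strain, 3 were lower and 3 higher. Macrophage markers summed to 303 and 157 FPKM in WT, 195 and 220.2 in Gcn2-/- and 324 and 150.3 in Atf4-/- mice. These markers also differed among themselves. In Gcn2-/- mice 2 of the 6 were lower and 4 higher, with Lyz2 going from 54.1 to 134 FPKM and Clec4f from 67.3 to 15.9. The sums of stellate and endothelial markers lay between 83.9 and 138 FPKM and between 50.8 and 109.9 FPKM. Skeletal muscle markers ranged from 5.78 to 1158 FPKM in sum and were high in the WT groups, and pancreatic acinar markers reached 51.4 FPKM in WT ASNase and 296 in Atf4-/- ASNase, with at most 14.1 in the other groups. Kidney tubule markers summed to at most 0.0442 FPKM. The part of these markers in the members' values was not tested. Atf4 was at 32.3 and 29.3 FPKM in the Atf4-/- groups and at 50.4 to 68.1 FPKM elsewhere, and the Atf4-/- bounds of 19.1–45.5 with PBS and 17.3–41.2 with ASNase overlapped those of every other group. Eif2ak4, the gene of GCN2, was at 2.31 and 2.96 FPKM in the Gcn2-/- groups and 2.19 to 3.14 elsewhere. A value for a whole gene does not show which exons are missing, so it checks neither deletion. The paper itself reports both deletions from plots of read density along the genes, and it also measured Atf4 by RT-qPCR.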

How the data were processed

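RNA-Seq of polyA RNA from whole liver was carried out by the authors in 18 mice, 3 in each of 6 groups, with a library kit that does not mark strand. Per the labels and the study's methods, reads were mapped to mm10 with TopHat and FPKM were computed with Cuffdiff. The deposited table holds 1 FPKM value per gene and group, made by the authors from 3 libraries together, with a lower bound, an upper bound and a status, so counts and values of single mice were not used here. The table gives no depth, and the reads per library that the study lists were not used. Groups were read from the column names. Analysis used Python 3.11.15, numpy 2.4.6 and pandas 2.3.3 on log2(FPKM + 0.1).

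A gene was eligible with status OK and a value above 0 in the groups compared and over 3 FPKM in at least 1. It was called when the difference was over 1.5 and the bounds did not overlap. Bounds of a difference combine the half-widths on each side as the root of their summed squares. A response differed between strains when the difference of 2 log2 changes was over 1.5 and its bounds excluded 0. No p-value was computed, since no library has a value of its own. Coordinates are those of GENCODE (GRCm38), and promoters come from RefSeq.

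Given in full are the members called in any comparison and, per amino acid, the member with the largest change in each strain. From the other list, genes called after ASNase are named, except 1 that is not reported here. Promoters are those of the members called most often. The members and lists were chosen with earlier results of these data known. The alternatives tried were other pseudocounts, filters, size limits, conditions on the bounds and scalings.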

Additional observations from a re-analysis of the deposited data

Results flagged for a closer look

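These results stand out because the log2 change after ASNase differed between strains by more than 1.5 with bounds that exclude 0. Between Gcn2-/- and WT mice these were Agxt, with a difference of -2.02 (changes of -2.14 and -0.12), and Csad, with -2.25 (-2.12 and 0.13). Between Atf4-/- and WT mice they were Uroc1 at -2.95, Prodh2 at -2.85, Aldh4a1 at -2.07 and Ido2 at -2.04. Between Atf4-/- and Gcn2-/- mice they were Uroc1 at -2.25 and Acmsd at -1.80, the latter from changes of -0.83 and 0.97. Single mice could not be examined, so no sample could be checked for standing apart. The difference of Csad between the knockouts, whose changes were -2.12 in Gcn2-/- and -1.09 in Atf4-/- mice, did not pass the limits.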

How the results depend on the processing

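Of 100 values recomputed under alternatives, 88 were labelled the same as the value given above and 12 moved. The 88 include the counts of 0 in WT mice after ASNase and between strains under PBS, which have no direction. They also include the change from 9 to 13 members in Atf4-/- mice, so the label allowed sizeable shifts. All members passed the filter on low values, so leaving it out could not change their counts, and a smaller pseudocount could hardly do so. The count of 88 therefore says little about robustness. Under each alternative no member was called in WT mice after ASNase or between strains under PBS. In Atf4-/- mice 9 to 13 members were called after ASNase under all alternatives. In Gcn2-/- mice the 2 called members became 4 with bounds of the difference that exclude 0 in place of separate bounds, 6 with no condition on the bounds and 8 with those bounds and no limit on size, the last chosen after seeing the data. Without a condition on the bounds the response differed between Gcn2-/- and WT mice for 5 members and between Atf4-/- and WT mice for 8. Scaled to the same summed FPKM, the response of 10 members differed between Atf4-/- and WT mice and that of 5 between the knockouts, and the medians of the members became 0.026 in WT, -0.5425 in Gcn2-/- and -1.3514 in Atf4-/- mice after ASNase, and -0.1143 in Gcn2-/- and -0.0362 in Atf4-/- mice against WT under PBS. That scaling shifts the median of all genes as well, to 0.15, 0.25, -0.22, -0.12 and 0.12, and the members with a value that changed sign under it had at most 0.24 on the log2 scale as deposited. Over all genes, the calls after ASNase went from 80 in WT, 340 in Gcn2-/- and 699 in Atf4-/- mice to 134, 607 and 1160 with no condition on the bounds and to 149, 798 and 1380 without a limit on size. In WT mice they were 124 with no filter on low values and 41 with a filter of 10 FPKM. Under PBS, 93 calls in Gcn2-/- mice became 144 with no filter and 181 with no condition on the bounds, and 101 in Atf4-/- mice became 153 and 180. Responses that differed over all genes went from 422, 633 and 346 to 783, 1123 and 721 with no condition on the bounds, for Gcn2-/- and Atf4-/- against WT and for Atf4-/- against Gcn2-/- mice, and the last to 532 at the same summed FPKM. The cause of these shifts was not tested. No paired analysis was possible because the table holds 1 value per group, and for the same reason no replicate could be left out. The table gives no depth, and the width of the bounds and the size limit together set what could be called.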
